A study of Mus musculus with 2 samples.

Results

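To ask where H2BK120ub, the monoubiquitinated form of histone H2B, lies in the major histocompatibility complex (MHC), the chromatin immunoprecipitation sequencing (ChIP-seq) peaks on chromosome 6 of the human genome build hg19, from 29640000 to 33120000, were taken from the peak lists of WT and UBR7-KO cells. A peak was a member if it overlapped this stretch of 3.48 Mb by at least 1 bp. Of 229310 peaks in both lists, 389 were members: 213 of the 101866 WT peaks and 176 of the 127444 UBR7-KO peaks. The stretch was divided into class I (29640000 to 31480000), class III (31480001 to 32360000) and class II (32360001 to 33120000). These limits follow position alone and not the measured values, and 0 peaks lay across any of them.

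Both libraries were made from mouse liver primary cells that the labels call conditionally immortalized. WT cells are wild type. UBR7-KO cells carry Alb; Cre-UBR7fl/fl, so that the E3 ubiquitin ligase UBR7 is removed where the albumin promoter drives Cre recombinase, which is in hepatocytes. According to the methods, the donors of liver cells in both groups were males aged 8 weeks, while the number of animals behind each library is not given in the sources used here. The liver identity of the cells was not checked against marker genes because the lists name no genes. Each genotype has 1 library, so there is no test, p-value or replicate error between genotypes, and every difference below is a difference between 2 libraries. The reads were aligned by the authors to a human genome although the cells are labelled as mouse, so the positions are those of the human MHC. Whether the material was mouse or human cannot be told apart here.

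The human MHC lies on the short arm of chromosome 6 and is among the most gene-dense and most variable stretches of the genome. Its class I part holds the genes of the heavy chains that present peptides from inside the cell to cytotoxic T cells and that nearly all nucleated cells express. Its class II part holds the chains that present taken-up antigen to helper T cells and that are mainly expressed by professional antigen-presenting cells. The class III part between them encodes no presenting molecules but complement components, cytokines of the tumour necrosis factor family and many widely expressed genes, some of the complement genes being a typical product of hepatocytes. H2BK120ub is placed co-transcriptionally and is known from the bodies of transcribed genes, where it forms broad stretches. Positions of single genes were not used here.

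WT peaks covered more of the MHC than UBR7-KO peaks. The covered length was 928.1 kb in WT, or 26.7% of the region, and 464.2 kb in UBR7-KO, or 13.3%, a UBR7-KO over WT ratio of 0.500. The number of peaks was lower in UBR7-KO as well, with a ratio of 0.826. Only 6.88% of the region was covered in both lists, whereas 19.8% was covered by WT peaks alone, 6.46% by UBR7-KO peaks alone and 66.9% by neither. The order of the peak numbers depended on the settings. It turned to 1.05 (56 WT and 59 UBR7-KO peaks) when a pileup at or above 3 times the background was required and to 1.02 after peaks within 5000 bp were merged, whereas the covered length stayed lower in UBR7-KO, with ratios of 0.399 and 0.531. Among peaks with a fold enrichment of 2.5 or more, 37 in WT and 12 in UBR7-KO, the ratio of covered lengths was 0.132, and it fell over all other peaks as well, from 0.886 as deposited to 0.203.

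**Figure D1:**
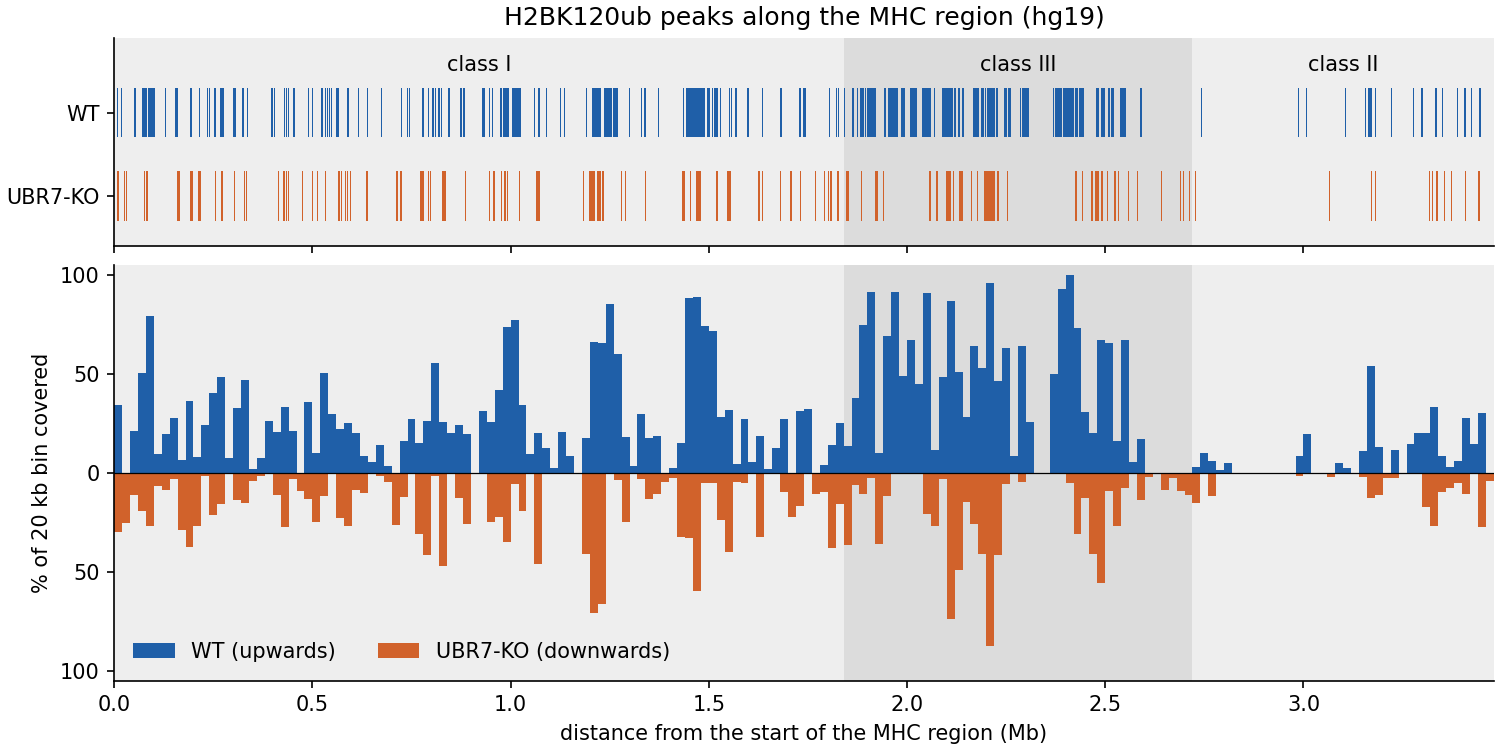
H2BK120ub peaks of WT (blue) and UBR7-KO (orange) cells along the MHC region, with distance from its start in Mb on the horizontal axis and the 3 classes shaded. The upper panel draws each peak as a bar of its own length, and the lower panel gives the percentage of each 20 kb bin covered by peaks, upwards for WT and downwards for UBR7-KO; class III is the most densely covered in WT, at 43.1%, and class II the most sparsely covered, at 8.74%.

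In the lists as deposited, the ratios in the MHC were lower than around it. In the telomeric flank, the stretch of equal length before the region (26159999 to 29639999), WT peaks covered 9.41% and UBR7-KO peaks 9.86%, a ratio of 1.05. In the centromeric flank, the stretch of equal length after it (33120001 to 36600001), the shares were 36.3% and 23.9%, a ratio of 0.660. Both flanks held more UBR7-KO than WT peaks, with number ratios of 1.15 and 1.11. Over all other peaks of the genome the number ratio was 1.25 and the ratio of covered lengths 0.886, and over the rest of chromosome 6 they were 1.20 and 0.914. Both ratios were thus lower in the MHC than in its flanks, on the rest of the chromosome and in the rest of the lists, which was not tested since each genotype has 1 library. The order held when peaks within 5000 bp were merged and when a pileup at or above 3 times the background was required. At a fold enrichment of 2.5 or more it held for the number ratio, with 0.324 in the MHC and 0.452 to 0.797 around it. The ratio of covered lengths at that setting, 0.132, was above the 0.116 of the centromeric flank and under the 0.304 of the telomeric flank.

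To see how common such values were, chromosomes were divided into tiles of the length of the MHC region, in step with the region on chromosome 6, and tiles with at least 20 peaks in each list were kept. Among the 804 tiles, the region included, UBR7-KO peaks were fewer than WT peaks in 72 (8.96%) and covered less length in 346 (43.0%). Of the 803 other tiles, 7 had a lower number ratio than the MHC and 4 a lower ratio of covered lengths. The median ratios over these tiles were 1.27 and 1.08. None of the 47 other tiles of chromosome 6 had a lower value of either ratio, and the lowest values there were 0.910 and 0.546. Tiles densely covered by WT peaks had lower ratios in general. WT coverage is also the denominator of the ratio of covered lengths, so picking tiles by it lowers that ratio in part by itself. The size of that part was not tested. Of the 108 tiles that WT peaks covered at least as densely as the MHC, the ratio of covered lengths ran from 0.527 to 0.969 with a median of 0.718, and 0 lay under the 0.500 of the MHC, while 2 had a lower number ratio. Tiles are neighbouring stretches of the same 2 libraries and not replicates, so these ranks describe the lists and carry no p-value.

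**Figure D2:**
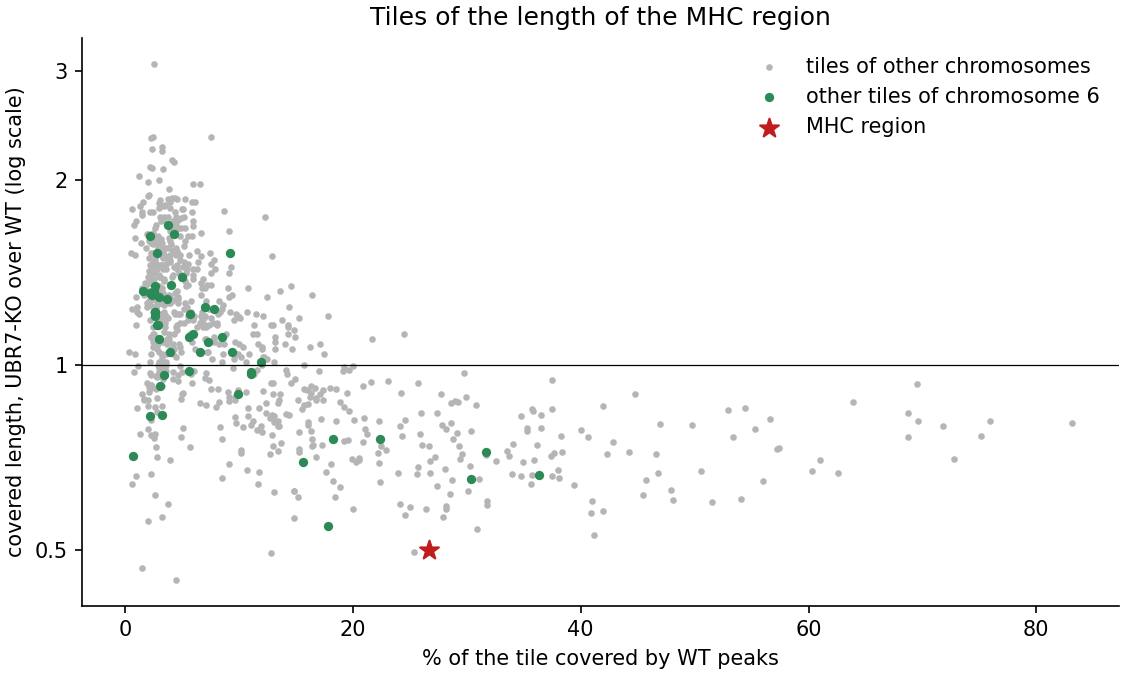
Each point is a tile of 3.48 Mb with at least 20 peaks in each list, placed by the percentage of the tile that WT peaks covered (horizontal axis) and by the UBR7-KO over WT ratio of covered lengths (vertical axis, log scale). The MHC region, marked by a star at 26.7% and a ratio of 0.500, lies under all 47 other tiles of chromosome 6 (green) and under 799 of the 803 other tiles of the genome. WT coverage is also the denominator of the ratio, so the axes are not independent.

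Class III was the most densely covered part in WT and showed the lowest ratio of covered lengths of the 3 classes. WT peaks covered 379.2 kb, or 43.1% of its length, and UBR7-KO peaks covered 146.2 kb, or 16.6%, a ratio of 0.386. The numbers of peaks were closer, at 55 in WT and 47 in UBR7-KO (ratio 0.855), so the WT coverage rested on longer peaks. Class III makes up 25.3% of the region but held 40.9% of the WT coverage, 31.5% of the UBR7-KO coverage and 50.2% of the difference between them. The size of the difference varied with the threshold, from a ratio of 0.0343 at a fold enrichment of at least 2.5 (11 WT and 3 UBR7-KO peaks) to 0.410 after merging within 5000 bp. Merging turned the number ratio to 1.72, with 18 WT and 31 UBR7-KO peaks, since the WT peaks lay closer together.

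Along class III, which was divided into 4 segments of equal length, the ratio of covered lengths was lowest in the first segment, at 0.193, and highest in the second, at 0.659. In the first segment (31480001 to 31700000), WT peaks covered 58.3% and UBR7-KO peaks 11.2%, and only 7.29% of the WT length was shared. In the second segment (31700001 to 31920000), the shares were 50.7% and 33.5%, and 46.1% of the WT length and 69.9% of the UBR7-KO length were shared. In the third segment (31920001 to 32140000), WT peaks covered 47.7% and UBR7-KO peaks 13.6%, of which 78.1% lay under WT peaks. The fourth segment (32140001 to 32360000) was sparse in both, at 15.7% and 8.21%. It was also the only segment of any class with more UBR7-KO than WT peaks, 14 against 6, and the lists shared 889 bp there, 2.58% of the WT and 4.92% of the UBR7-KO length, the lowest shares of the 4 segments. These peaks were short in UBR7-KO, with a mean length of 1291 bp against 5742 bp in WT.

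Class I held most peaks of the region. The WT list had 129 peaks there and the UBR7-KO list 109, a ratio of 0.845. They covered 482.5 kb (26.2%) and 284.4 kb (15.5%), a ratio of 0.589. The number ratio turned to 1.37 and the ratio of covered lengths moved to 0.906 when a pileup at or above 3 times the background was required, with 30 WT and 41 UBR7-KO peaks. Averaged over each segment, coverage in UBR7-KO was similar along class I, between 14.3% and 16.8%. Within the third segment, however, 106 kb (30715080 to 30821304) held no UBR7-KO peak. Segment coverage in WT ranged from 19.9% in the second segment (30100000 to 30559999) to 32.3% in the third (30560000 to 31019999). The ratio of covered lengths was under 1 in each segment, from 0.519 in the third to 0.721 in the second.

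Class II was sparse in both libraries. The WT list had 29 peaks there, covering 66.43 kb or 8.74%, and the UBR7-KO list 20, covering 33.63 kb or 4.42%, a number ratio of 0.690 and a ratio of covered lengths of 0.506. With so few peaks, requiring a pileup at or above 3 times the background left 7 in each list and a ratio of covered lengths of 0.802. Coverage was concentrated at the end of the class next to the centromeric flank. In the fourth segment (32930001 to 33120000) it reached 17.3% in WT and 11.3% in UBR7-KO, and in the third (32740001 to 32930000) 11.4% and 3.19%. In the second segment (32550001 to 32740000) it was 3.51% and 0.356%. In the first (32360001 to 32550000) it was 2.75% and 2.83%, and there the lists shared 0 bp.

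**Figure D3:**
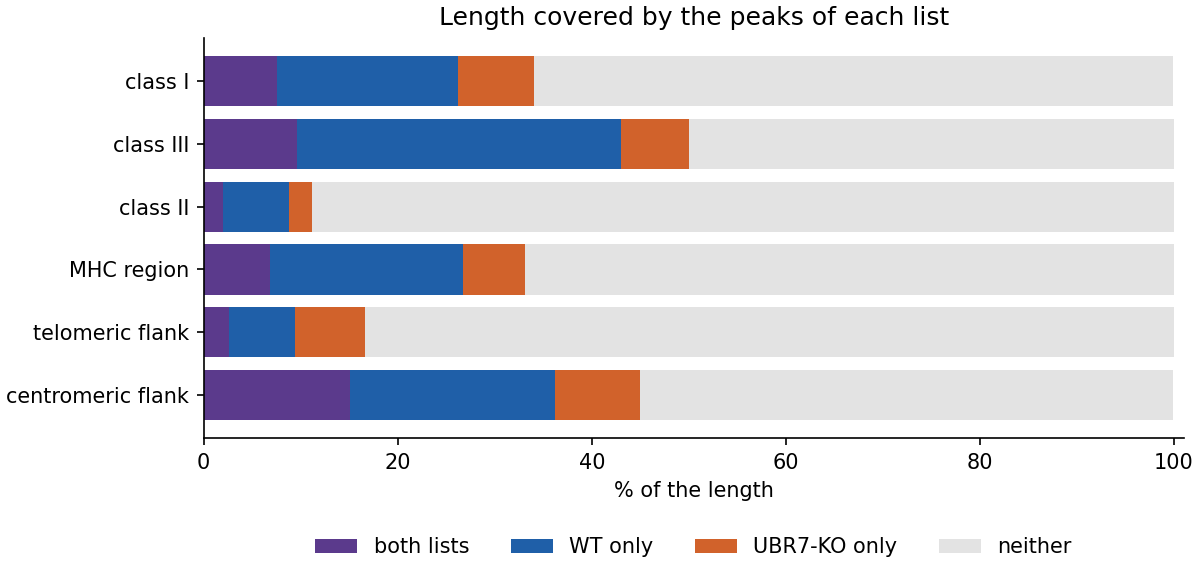
Percentage of the length of each class, of the whole MHC region and of its flanks that was covered by peaks of both lists, of WT alone, of UBR7-KO alone or of neither. Sequence covered in WT alone made up 33.4% of class III, 18.6% of class I and 6.78% of class II, against 6.95%, 7.87% and 2.46% for UBR7-KO alone.

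By their medians, peaks were shorter in UBR7-KO than in WT in each class. The order was the same over all other peaks, where the WT median was 1583 bp against a UBR7-KO median of 1361 bp. It also held in the centromeric flank, at 3122 against 2599 bp, but turned in the telomeric flank, at 1238 against 1339 bp. A lower median in UBR7-KO was thus not particular to the MHC. In class III, the median WT peak had 4598 bp (quartiles 1803 and 9894 bp, longest 28225 bp) and the median UBR7-KO peak 1845 bp (quartiles 1036 and 4262 bp, longest 11528 bp). In class I the medians were 2589 bp (1053 and 4253 bp, longest 27692 bp) and 1963 bp (966 and 3206 bp, longest 15430 bp). In class II they were 1488 bp (998 and 2922 bp, longest 7994 bp) and 1180.5 bp (488.2 and 2284 bp, longest 5065 bp). Across the lists the ranges of length overlapped widely in every class. The shortest WT member had 309 bp and the shortest UBR7-KO member 279 bp, close to the shortest peaks of the whole lists.

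Peaks over 10000 bp numbered 21 in WT (9.86% of the WT members, against 7.58% of all WT peaks) and 6 in UBR7-KO (3.41%, against 3.75% of all UBR7-KO peaks). Of these, 12 and 4 lay in class III, 9 and 2 in class I, and 0 and 0 in class II, where 0 of 29 and 0 of 20 peaks allow a share of up to 11.7% and 16.1% (95% Wilson intervals, which cover counting error only). In class III they made up 53.5% of the length covered in WT and 29.5% of that in UBR7-KO. Peaks under 1000 bp made up a smaller share than in the whole lists, with 43 WT members (20.2%, against 35.1% of all WT peaks) and 50 UBR7-KO members (28.4%, against 39.3%). In class III only 4 of 55 WT peaks were that short (7.27%, interval 2.86 to 17.3%), against 11 of 47 in UBR7-KO (23.4%, interval 13.6 to 37.2%).

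**Figure D4:**
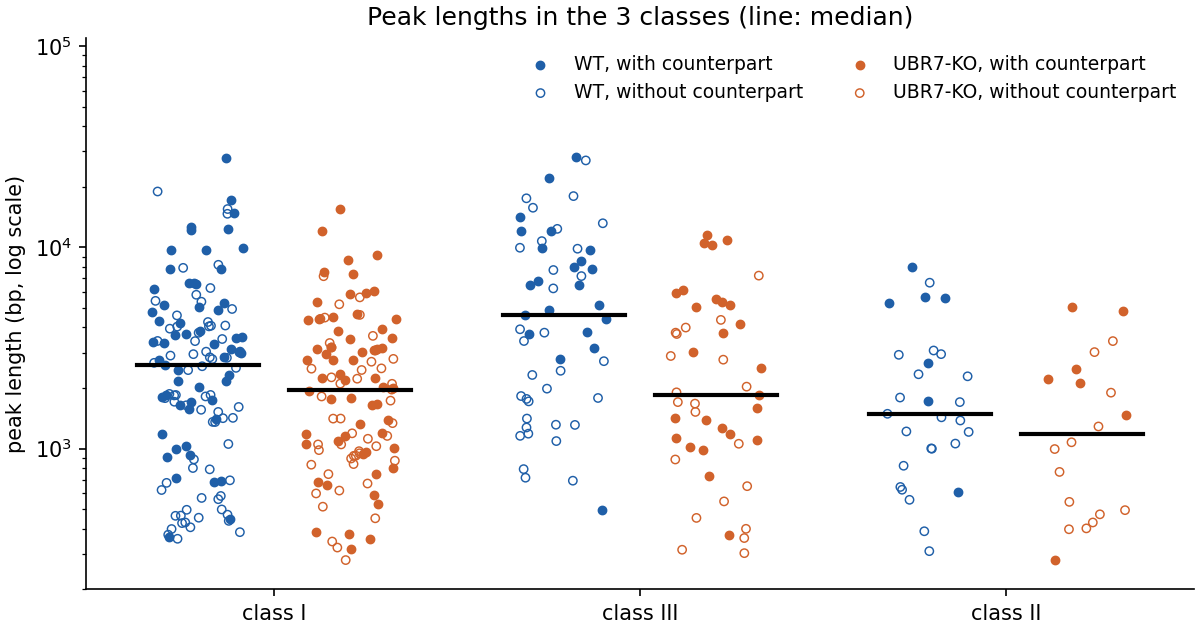
Length of each peak in bp (vertical axis, log scale) by class and list, with WT in blue and UBR7-KO in orange. Filled points have a counterpart in the other list, open points have none, and black lines mark the medians; the class III medians, 4598 bp for WT against 1845 bp, lie farthest apart.

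Fold enrichment, the pileup plus 1 over the background of the same library plus 1, was low throughout. The median was 2.27 in the WT members (range 2 to 3.18) and 2.13 in the UBR7-KO members (range 2 to 2.96), against 2.20 and 2.15 over all other peaks of each list. Without the added 1 the order of the libraries turned over the members as a whole. The median ratio of pileup to background was 2.77 in WT and 2.85 in UBR7-KO. The order turned over all other peaks as well (2.73 and 2.96). By class it turned in class I (2.73 and 2.89) and barely in class II (2.83 and 2.84), but not in class III (2.90 and 2.75). The classes were ordered differently in the libraries. In WT the median fold enrichment was 2.34 in class III, 2.30 in class II and 2.22 in class I. In UBR7-KO it was 2.10, 2.13 and 2.14. Values of 2.5 or more were found for 37 WT members (17.4%, against 16.9% of all WT peaks) and for 12 UBR7-KO members (6.82%, interval 3.94 to 11.5%, against 9.77%). The WT share was thus near that of the genome.

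The pileup, the stacked fragments over a peak, scales with depth and was compared within a list only. Its median was highest in class III in both lists, at 7.42 in WT and 4.79 in UBR7-KO, against 6.94 and 4.54 in class I and 6.97 and 4.67 in class II. The background recovered from pileup and fold enrichment was highest there too, with medians of 2.64 and 1.71 in class III, against 2.31 and 1.45 over all other peaks. The pileup reached 3 times the background in 56 WT members (26.3%, against 25.3% of all WT peaks) and 59 UBR7-KO members (33.5%, interval 27.0 to 40.8%, against 44.9%). In class III this held for 19 of 55 peaks in WT (34.5%) and 11 of 47 in UBR7-KO (23.4%). The lowest background of the lists differed, at 1.81 in WT and 1.16 in UBR7-KO (1st percentile of all peaks), and the part of depth in the differences above was not tested.

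Next, the lists were matched by position. Of the 213 WT members, 87 overlapped a UBR7-KO peak by at least 1 bp (40.8%, interval 34.5 to 47.6%), close to the 40.2% of all WT peaks. Of the 176 UBR7-KO members, 95 overlapped a WT peak (54.0%, interval 46.6 to 61.2%), against 35.2% of all UBR7-KO peaks. In the centromeric flank 112 of 205 UBR7-KO peaks were matched (54.6%), and in the telomeric flank 65 of 189 (34.4%). A share of this size was thus not particular to the MHC. WT peaks covered 26.7% of the region, so a UBR7-KO peak had more WT sequence to meet there than in most of the genome, and the part of this in the larger share was not tested. Under the stricter demand of 50% of both peaks, 30 WT members (14.1%, against 15.0% of all WT peaks) and 30 UBR7-KO members (17.0%, against 12.0%) were matched.

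By class, a match was found in class I for 58 of 129 peaks in WT (45.0%) and for 62 of 109 in UBR7-KO (56.9%). In class III, 22 of 55 (40.0%) and 26 of 47 (55.3%) were matched. In class II, 7 of 29 (24.1%, interval 12.2 to 42.1%) and 7 of 20 (35.0%, interval 18.1 to 56.7%) were matched. The intervals of the 3 classes overlapped in each list. By length, the shared sequence was 28.9% of the WT and 49.1% of the UBR7-KO length in class I, 22.4% and 58.2% in class III, and 22.4% and 44.3% in class II.

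**Figure D5:**
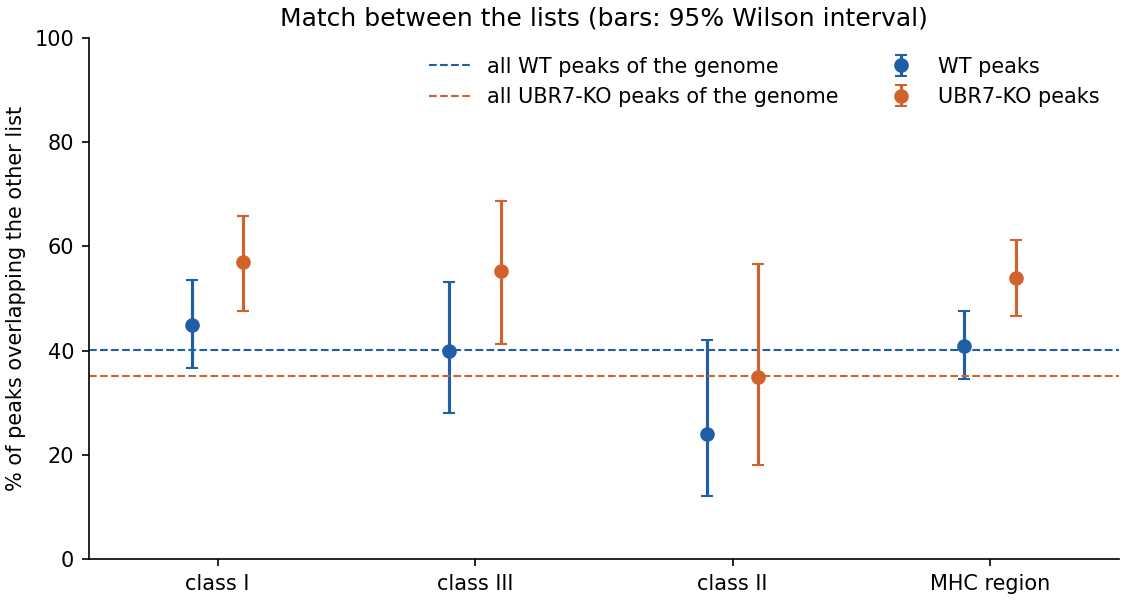
Percentage of WT (blue) and UBR7-KO (orange) peaks that overlap a peak of the other list by at least 1 bp, by class and for the whole region, with 95% Wilson intervals as bars. Dashed lines give the same percentage over all peaks of each list, 40.2% and 35.2%; the UBR7-KO peaks of class I and class III lie above their line and the WT peaks of class III near theirs.

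Unmatched peaks were shorter than matched ones in both libraries. The medians were 1803.5 bp for the 126 unmatched and 3823 bp for the 87 matched WT members, and 1155 bp for the 81 unmatched and 2473 bp for the 95 matched UBR7-KO members. Of the unmatched members, 58 of the 126 in WT and 47 of the 81 in UBR7-KO lay within 5000 bp of a peak of the other list. The same share over all unmatched peaks of the lists is not given here, so these counts describe the region alone. The farthest was a UBR7-KO peak of class III, 70811 bp from any WT peak.

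The share of long WT peaks with a counterpart was lower in the MHC than in the whole list, in a comparison not matched for length. The longest WT peak had 28225 bp in the MHC and 230695 bp among all other peaks. The part of length in the lower share was not tested. Among WT peaks over 10000 bp, 11 of 21 in the MHC had a UBR7-KO counterpart (52.4%, interval 32.4 to 71.7%), against 85.2% of the 7721 such peaks in the whole list. The other 10 met 0 UBR7-KO peaks, with 7 of them in class III (114 kb in all) and 3 in class I (49.1 kb). UBR7-KO peaks covered 16.5% of the length of the long WT peaks in class III and 28.6% in class I. In reverse, all 6 UBR7-KO peaks over 10000 bp met a WT peak, which covered between 51.5% and 100% of them. Their matched share (100%, interval 61.0 to 100%) was near the 94.2% of such UBR7-KO peaks in the whole list. WT members of 1000 to 10000 bp were matched in 44.3% of cases and those under 1000 bp in 23.3%, against 45.0% and 22.7% in the whole list, so the lower share was seen in the long peaks.

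The 3 longest WT peaks of class III differed in how far the other library covered them. The longest, 28225 bp at 32032557 to 32060781 with a fold enrichment of 2.47, met a single UBR7-KO peak of 1015 bp, which covered 3.60% of it. The second, 27024 bp at 31591321 to 31618344 with a fold enrichment of 2.51, met none, and the nearest UBR7-KO peak was 8980 bp away. The third, 21994 bp at 31840813 to 31862806 with a fold enrichment of 2.55, met 3 UBR7-KO peaks of 10819, 3003 and 11528 bp, which covered 80.1% of it. The first of these 3 also reached 2 WT peaks before it, of 4414 and 3773 bp, and was the only UBR7-KO member with 3 counterparts. At least 2 counterparts were found for 12 WT members (5.63%, against 5.62% of all WT peaks) and 5 UBR7-KO members (2.84%, against 2.77%). Over the region as a whole such peaks were thus about as frequent as elsewhere. By class, these were 7 of 55 WT peaks in class III (12.7%, interval 6.30 to 24.0%), 5 of 129 in class I (3.88%) and 0 of 29 in class II. In UBR7-KO they were 3 of 47, 2 of 109 and 0 of 20.

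In class I, the longest WT peak spanned 27692 bp at 31102995 to 31130686. UBR7-KO peaks of 12007 and 966 bp lay within it and covered 46.8% of it. The second, 18939 bp at 30875538 to 30894476, met no UBR7-KO peak, although the nearest was only 10 bp away. The third, 17255 bp at 31081992 to 31099246, held UBR7-KO peaks of 1330 and 4364 bp, 33.0% of its length. A further WT peak of 14781 bp at 30620608 to 30635388 held 3 UBR7-KO peaks of 1092, 3090 and 2744 bp. The longest UBR7-KO peaks of class I were 15430 bp at 30837200 to 30852629, 12007 bp within the longest WT peak, and 9154 bp at 30858468 to 30867621. WT peaks covered 51.5%, 100% and 100% of them. The longest unmatched UBR7-KO peak was 7183 bp at 30469491 to 30476673, with a WT peak 2297 bp from it.

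In class III, the longest UBR7-KO peaks were 11528 bp at 31849421 to 31860948, 10819 bp at 31833075 to 31843893 and 10477 bp at 32114686 to 32125162. The first pair met the same long WT peak. The last enclosed a WT peak of 7823 bp at 32116007 to 32123829, which had the highest fold enrichment of class III in WT, 3.04, against 2.09 for its counterpart. It was an exception to the general order of lengths, since the UBR7-KO peak was the longer. The longest unmatched UBR7-KO peak of class III was 7232 bp at 31486257 to 31493488, with a WT peak 1879 bp from it.

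In class II, the longest WT peaks were 7994 bp at 32805510 to 32813503, 6669 bp at 32935903 to 32942571 and 5693 bp at 33081566 to 33087258. A UBR7-KO peak of 2473 bp lay within the first. The second met none, and the nearest was 13135 bp from it. The third shared 4381 bp with the longest UBR7-KO peak of the class, 5065 bp at 33080882 to 33085946. The next UBR7-KO peaks were 4815 bp at 32973792 to 32978606, of which 88.3% lay under a WT peak, and 3419 bp at 32955707 to 32959125, which met none and was the longest unmatched UBR7-KO peak there.

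The peaks with the highest fold enrichment were mostly short and did not rank alike in the lists. In class I of WT these were 1640 bp at 30922983 to 30924622 (fold enrichment 3.18), 1564 bp at 29759778 to 29761341 (3.11) and 4046 bp at 30092126 to 30096171 (3.03). Only the second had a counterpart, with a fold enrichment of 2.28. In class I of UBR7-KO they were 3206 bp at 29894154 to 29897359 (2.96), 1814 bp at 30113935 to 30115748 (2.75) and 1654 bp at 30078902 to 30080555 (2.63). The first and the third had WT counterparts, with fold enrichments of 2.44 and 2.71.

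In class III of WT, the peak at 32116007 was followed by 2320 bp at 31708016 to 31710335 (2.76, unmatched) and 3704 bp at 31513174 to 31516877 (2.72, counterpart 2). In UBR7-KO they were 1583 bp at 31864004 to 31865586 (2.82), 1424 bp at 32145203 to 32146626 (2.66) and 371 bp at 32143470 to 32143840 (2.56), with WT counterparts at 2.60, 2.44 and 2.19. In class II of WT, all 3 were unmatched: 1488 bp at 32948316 to 32949803 (2.72), 644 bp at 32379154 to 32379797 (2.65) and 1209 bp at 33027583 to 33028791 (2.58). In class II of UBR7-KO, 2127 bp at 33048277 to 33050403 (2.70) and 280 bp at 32626182 to 32626461 (2.49) were matched by WT peaks at 2.35 and 2.03, and 429 bp at 33095171 to 33095599 (2.51) was unmatched.

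In 69 cases, 50 of them in class I, 12 in class III and 7 in class II, a WT and a UBR7-KO peak overlapped only each other. The WT peak was the longer in 48 of the 69 (69.6%), against 54.6% of the 29858 such pairs in the rest of the genome. By class this held for 31 of 50, 11 of 12 and 6 of 7 pairs. The median UBR7-KO over WT ratio of lengths was 0.616 in the region, with 0.680 in class I, 0.427 in class III and 0.830 in class II, and it was 0.920 in the other pairs. In the class III pairs, the median WT peak had 7900.5 bp and the median UBR7-KO peak 1973 bp. The UBR7-KO peak lay wholly within the WT peak in 27 pairs and the reverse was seen in 6. Among the 29858 other pairs these numbers were 8471 and 6312. Across the 69 pairs Spearman's rho between the paired lengths was 0.51, and between the fold enrichments it was 0.13. Both were near the values of the other pairs, 0.45 and 0.13. The classes differed in rho between the fold enrichments. It was 0.28 in class I, -0.64 in the 12 pairs of class III and -0.14 in the 7 of class II. Between the lengths rho was 0.48, 0.35 and 0.71 in the same order. These pairs are from the same 2 libraries and are not independent replicates.

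In bins of 20 kb, WT covered more than UBR7-KO in 111 of 174 bins, UBR7-KO more in 46, and neither list had a peak in 17. At least 50% of the bin was covered by WT peaks in 35 bins, 20 of them in class III, and by UBR7-KO peaks in 6. In all 6 of these the WT peaks also covered at least 50%. The same counts over bins outside the MHC are not given here, so these counts describe the region alone. The largest difference towards WT was in class III at 32040001 to 32060000, where WT covered 100% and UBR7-KO 5.08%. In class I it was at 30880000 to 30899999, with 85.4% and 0%, and in class II at 32800001 to 32820000, with 53.9% and 12.4%. The largest differences towards UBR7-KO were smaller, with 0% in WT and 26.1% in UBR7-KO at 30340000 to 30359999 in class I, 10.2% and 35.9% at 31560001 to 31580000 in class III, and 3.22% and 15.1% at 32360001 to 32380000 in class II. Across the bins, coverage in the lists ranked with a rho of 0.39 in the region, 0.29 in class I, 0.20 in class III and 0.53 in class II. Neighbouring bins share peaks, and these values describe the bins of 2 libraries.

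Finally, stretches without peaks were measured. The longest stretch without a peak of either list spanned 173 kb in class II (32452699 to 32626181), which is 22.8% of the class. In class III it spanned 57.6 kb (31948084 to 32005711), although the class was the most densely covered. In class I it spanned 35.6 kb (30785686 to 30821304). In UBR7-KO alone, the longest stretches without a peak were 211 kb in class II, 132 kb in class III and 106 kb in class I, against 174, 129 and 44.5 kb in WT. Only chromosomes of the main assembly carried peaks, with 0 peaks of either list on contigs of alternative MHC haplotypes. How reads with several possible positions were treated is not given in the sources used here, and peaks over near-identical gene copies, which are common in the MHC, are uncertain for that reason.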

How the data were processed

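H2BK120ub was measured by ChIP-seq in 1 WT and 1 UBR7-KO library. According to the methods, the authors used BWA aln with hg19 as the genome and then MACS, library by library, with a limit on the q-value that is not given in the sources used here. The methods also describe a list for each mark that takes in peaks found at least 2 times. Whether the deposited lists were made in that way is not given in the sources used here. The submitters' processing notes name FastQC and Bowtie 1.1.2. The use of a control library and the mode of the caller are not given in the sources used here. The deposited lists give position, length, pileup and fold enrichment. Pileup is a signal, and fold enrichment a ratio of it to the background with 1 added to each, both made by the peak caller that the authors ran, and no fold enrichment was under 2. The depth of the libraries is unknown.

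The UBR7-KO list ended in 6 blank rows, which were dropped, and members were found by position (counted from 1, both ends included). Each peak was assigned to the class that holds its midpoint. The background was computed by dividing the pileup plus 1 by the fold enrichment and subtracting 1, after the definition used in MACS. A counterpart is a peak of the other list with an overlap of at least 1 bp. Shares have 95% Wilson intervals from scipy 1.17.1, which cover the error of counting, though peaks close to each other are not independent. Python 3.11.15, numpy 2.4.6 and pandas 2.3.3 were used. On 20000 simulated peaks, the overlap code was tested and found the built-in share of 40.0%, as did bedtools 2.31.1. The region, classes and settings were chosen with earlier results of these data known. Peaks were named by rule: the 3 longest, the 3 with the highest fold enrichment and the longest unmatched peak of each class and list, peaks across a limit, peaks with at least 3 counterparts, the longest empty stretches, and the 20 kb bins with the largest differences. Genes and sequences were not analysed, since the reference tables used here are of the mouse and the positions of the human genome.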

Additional observations from a re-analysis of the deposited data

How the results depend on the processing

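The comparison of tiles with equally dense ones and the ratios around the region under other settings were chosen after seeing the data. Other settings were listed before, with earlier results known. A fold enrichment of at least 2.5 gave, in the order region, class I and class III, number ratios of 0.324, 0.318 and 0.273, ratios of covered lengths of 0.132, 0.267 and 0.0343, matched shares of WT peaks of 8.11%, 9.09% and 9.09%, and of UBR7-KO peaks of 25.0%, 28.6% and 33.3%. In class II, 0% of 4 WT and of 2 UBR7-KO peaks were then matched. All other peaks had a number ratio of 0.725 and a ratio of covered lengths of 0.203 at that fold enrichment. A pileup of at least 3 times the background turned the number ratio to 1.05 in the region and 1.37 in class I, and moved the ratio of covered lengths to 0.906 in class I, 0.132 in class III and 0.802 in class II. Matched shares fell to 19.6%, 30.0%, 10.5% and 0% of WT peaks and 20.3%, 22.0%, 27.3% and 0% of UBR7-KO peaks (region, class I, class III, class II). All other peaks had a number ratio of 2.22 and a ratio of covered lengths of 1.03 under that setting. Matched shares of all other peaks are not given here for that setting, for a fold enrichment of at least 2.5 or after merging. The changes in matched shares at these settings therefore cannot be set against the genome. Merging within 5000 bp turned the number ratio to 1.02 in the region and 1.72 in class III, and moved the matched WT share to 47.9% in the region and 54.4% in class I. Requiring 50% of both peaks lowered the matched shares to 14.1%, 17.1%, 9.09% and 10.3% of WT peaks and 17.0%, 20.2%, 10.6% and 15.0% of UBR7-KO peaks. The cause was not tested. The ratio of covered lengths was under 1 in the region and each class under every setting run. Moving the class limits by 50000 bp kept all 12 values within 1.5 times or within their intervals. Assigning peaks to every class they overlap could change nothing, as no peak crosses a limit. No paired analysis was possible because WT and UBR7-KO have 1 library each, and leaving out a replicate was likewise not possible.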
